A study of Rattus norvegicus with 13 samples.

Results

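Autosomal DSB hotspots that were strong in BN rats, and of low strength in rats with the other Prdm9 allele or without PRDM9, are described here. A hotspot window was included when its BN strength was 200 or more while its strength was 20 or less in wild-type SHR, 60 or less in WKY and 20 or less in SHR lacking PRDM9. These limits were met by 1920 of the 91120 windows on chromosomes 1 to 20, or 2.11%, out of 96640 windows in the whole table. They are called strong BN windows below. Since the strengths in these 4 libraries chose the windows, they are given as a description and support nothing. The strength in SHR with 1 functional Prdm9 copy and all positions and distances were not used in the choice.

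All 5 libraries were made from whole adult testes by SSDS, in which fragments pulled down with an antibody to DMC1 are sequenced and those that had been single-stranded are kept. The BN library was made from the strain BN/RIJHsd with the wild-type genotype, the WKY library from wild-type WKY (Wistar Kyoto), and 3 libraries from SHR/OlaIpcv, the spontaneously hypertensive rat, with the genotypes wild-type, Prdm9+/- (KO/wt) and Prdm9-/- (KO/KO). BN differs from the other strains, which have a common allele, in its Prdm9 allele. It is also a different strain, so allele and strain background cannot be told apart in any comparison with BN. The KO/KO male was homozygous for a truncating Prdm9 deletion, and the wild-type SHR male was its littermate. There was 1 library per condition, so no difference between conditions has a replicate check and no test between them was possible. The deposited strength is a whole number per window and library whose definition and scaling are not given in the sources used here, and the depth in reads is unknown. Strengths are therefore set beside the level of called hotspots in the same library, and no ratio between libraries is drawn. In whole testes, fewer cells with breaks at a site and fewer molecules of DMC1-bound DNA per cell cannot be told apart.

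In meiosis, DNA double-strand breaks are made on purpose and repaired from the homologous chromosome. PRDM9 binds DNA through an array of zinc fingers and trimethylates histone H3 at lysine 4 and lysine 36 beside its binding site, where breaks are then placed. Alleles that differ in the zinc fingers that contact DNA bind different sequences and thus set different hotspot maps, and without PRDM9 breaks fall at sites already marked by H3K4me3, known as default sites. DMC1 is the recombinase that coats the single-stranded DNA of these breaks. No genome sequence or gene annotation of the rn5 assembly was used here, so that windows are given by position and neighbours only.

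Among strong BN windows the BN strength ran from 200 to 3008, with a median of 288 and quartiles of 234 and 391. For scale, the 18995 autosomal hotspots called in BN had a median strength of 71, so that the floor of 200 lay 2.82 times above it. Strengths fell off steeply. There were 1043 windows from 200 to under 300, 616 from 300 to under 500, 223 from 500 to under 1000, and 38 at 1000 or more. The 38 windows at 1000 or more were 1.98% of the windows and held 7.73% of their summed BN strength. The strong BN windows, of which all but 1 were called in BN, equalled 10.1% of the number of autosomal BN calls (Wilson 95% interval 9.68 to 10.5%) and 32.7% of their summed strength. Intervals on percentages here and below are of this kind, intervals on medians come from order statistics, and both cover the counting of windows only. A window just inside the floor, on chromosome 1 from 127958222 to 127961222, had a BN strength of 200, and one just outside, on chromosome 1 from 123454505 to 123457505, had 199. The call marks sorted the same way as the rule, which used the same libraries. In BN, 1919 of the 1920 were called (background over all autosomal windows 20.8%), while WKY gave 0 calls (background 38.3%), wild-type SHR 0 (background 21.8%) and KO/KO 1 (background 38.8%). The exception, on chromosome 14 from 23557664 to 23560664, was called in KO/KO alone. Its strengths were 241 in BN and 18 in KO/KO, and it overlaps a window starting at 23558078 that was called in BN with a strength of 250.

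In the other libraries the strong BN windows had low values, as the rule requires. Their WKY strength had a median of 20, which was 9.52% of the median of called autosomal WKY hotspots. The median was 1 in the wild-type SHR library and 2 in the KO/KO library, or 1.39% and 3.13% of the median called hotspot of those libraries. Values of 0 or below were recorded in WKY for 12.3% of the windows, in KO/KO for 31.5% and in wild-type SHR for 45.4%. In WKY, 49.1% of the windows had a strength over 20, so values within the limit were not all near 0. Weaker BN windows stood at like levels. Moderate BN windows, defined by a BN strength from 50 to under 200 and the same limits in the other libraries, numbered 10158 and had medians of 21 (WKY), 1 (wild-type SHR) and 2 (KO/KO). In reverse, 25138 windows of the WKY allele (WKY strength of 120 or more, BN and KO/KO strength of 20 or less) had a median BN strength of 8, or 11.3% of the median BN call. Default windows (KO/KO strength of 200 or more with 20 or less in BN and wild-type SHR and 60 or less in WKY), 3816 in number, also had a median BN strength of 8. A WKY strength over 20 was recorded in 51.5% of moderate BN and 46.1% of default windows, so it is not particular to strong BN windows. Whether breaks were present or absent there in WKY was not tested.

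The KO/wt library, which was not used in the choice, gave no hotspot call at any of the 1920 strong BN windows. Over all autosomal windows, without the limits of the rule, 21.6% were called in that library. A count of 0 among 1920 allows a share of up to 0.156% when the limit is set at 3 counts, and of up to 0.1997% by the upper Wilson limit. Both bounds cover the counting of windows only and say nothing about other animals. The KO/wt strength had a median of 3 (95% interval 3 to 3), a range of 5th to 95th percentile from -5 to 11, and a highest value of 20. It was thus at most 20 in the same windows where BN strength was at least 200. Moderate BN windows had the same KO/wt median of 3, with 3 of 10158 called. Default windows had a KO/wt median of 22, and 1175 of 3816 (30.8%) were called in KO/wt. Windows of the WKY allele had a KO/wt median of 40, with 54.8% called. KO/wt shares its Prdm9 allele with wild-type SHR and its strain with KO/KO. The limits on those libraries thus made low values and few calls in KO/wt likely beforehand. The 21.6% comes from windows without these limits and is not a like comparison, while moderate BN windows are under the same limits.

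**Figure D1:**
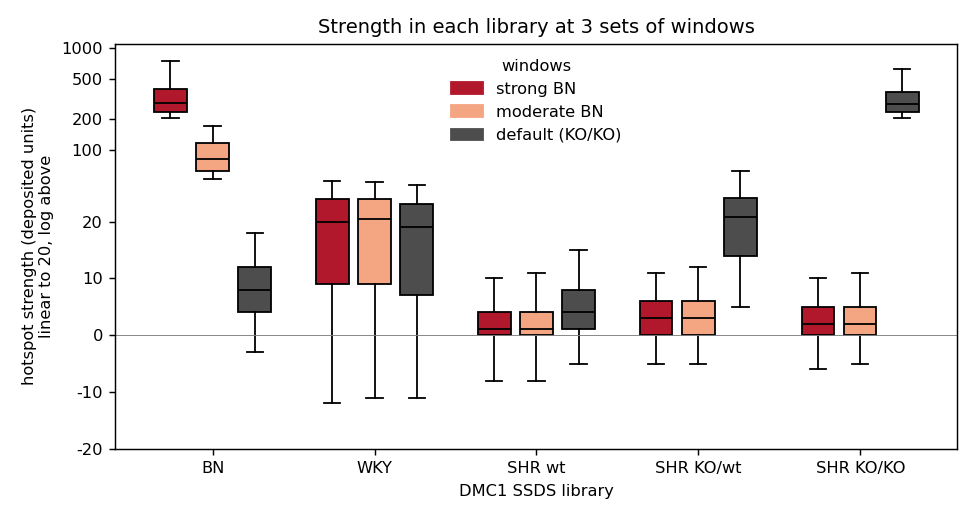
Hotspot strength (y axis, deposited units, linear to 20 and logarithmic above) in each of the 5 DMC1 SSDS libraries (x axis) at strong BN, moderate BN and default windows. Boxes give quartiles and median and whiskers the 5th and 95th percentiles over windows. In KO/wt, strong BN windows have a median of 3 and default windows 22.

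Within the strong BN windows, strength in BN went with no other library. The Spearman correlation of BN strength across the 1920 windows was 0.014 with WKY, -0.029 with wild-type SHR, 0.033 with KO/wt and 0.013 with KO/KO. These are descriptions within single libraries over a range cut by the limits. From the band of 200 to under 300 to the band of 1000 or more, the median WKY strength was 20 and 17, and the median KO/wt strength was 3 and 5. The windows highest in KO/wt were ordinary in BN. The highest KO/wt strength, 20, was reached on chromosome 3 from 434176 to 437176, with 284 in BN, and on chromosome 14 from 29324520 to 29327520, with 218 in BN.

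The strongest window of all lay on chromosome 1 of rn5 from 153132652 to 153135652, with a BN strength of 3008, a WKY strength of 13, and values of -32, -8 and 2 in SHR wild-type, KO/wt and KO/KO. Next came chromosome 1 from 70144951 to 70147951, with 2976 in BN and -18 in WKY, and with -9, 6 and 2 in SHR wild-type, KO/wt and KO/KO. On chromosome 16 from 69422438 to 69425438, the BN strength was 2814 and the WKY strength -12, beside 5, 9 and 1 in SHR wild-type, KO/wt and KO/KO. All 3 are thus more than 2000 in BN and under 20 in each of the other libraries. The second of them lies in the stretch of chromosome 1 from 70 to 71 Mb. That stretch had 8 calls in WKY and 0 in each SHR library, so low SHR values are not particular to this window. The fourth lay on chromosome 1 from 16453569 to 16456569, with 2559 in BN and from -23 to 16 elsewhere. After these 4 the strengths dropped to 1780, on chromosome 4 from 194393667 to 194396667, and number 10 in rank, on chromosome 8 from 28080328 to 28083328, had 1377. These ranks hold only among windows within the limits. A BN call of 2550 on chromosome 1, centred 468 kb below the strongest window, was left out by its WKY strength of 90. The strongest window of each chromosome ranged from 747 on chromosome 12 (31902120 to 31905120) to the 3008 of chromosome 1.

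Each of the 3 strongest windows overlapped a window of WKY strength 120 or more, with centres 2.51, 2.08 and 2.01 kb away. Beside the strongest, the WKY window had a WKY strength of 817, with 305 in wild-type SHR and 148 in KO/wt, and its BN strength was -289. For the next 2, the WKY neighbours had WKY strengths of 212 and 142, wild-type SHR strengths of 18 and 0, and BN strengths of -768 and -579. In each of these pairs BN, the library with the strong hotspot, gave a value below 0 in the window beside it.

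Values far below 0 occurred mainly in such overlapping windows. Another window was overlapped by 279 of the strong BN windows, or 14.5% (13.0 to 16.2%), against 17.4% of all autosomal windows. They had 290 partner windows, of which 129 were called in WKY, 123 in KO/KO and 36 in BN, and 178 of the partners had a BN strength below 0. A strength of -100 or less in some library was found in 21 strong BN windows, and all 21 overlapped another window. The most extreme, on chromosome 1 from 152998381 to 153001381, reached 649 in BN and -3736 in WKY, with -1569 in wild-type SHR and -3040 in KO/wt. The window that starts 2.44 kb further along reached 8268 in WKY and -45 in BN, with 3709 in wild-type SHR and 6469 in KO/wt. Among the 1641 strong BN windows that overlap no other, the lowest strengths were -57 (WKY), -21 (wild-type SHR), -15 (KO/wt) and -19 (KO/KO). The limits of the rule have no lower bound, so that windows with values far below 0 were admitted. Such values do not show that breaks were absent.

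Strong BN windows were found on every autosome, at 0.701 per Mb between the first and last window of each chromosome (moderate BN windows 3.71 per Mb). The density was highest on chromosome 1, at 0.898 per Mb (260 windows), and chromosome 3, at 0.839 (154 windows). It was lowest on chromosome 20, at 0.399 (23 windows), and chromosome 13, at 0.436 (51 windows), a range of 2.25 times. Large stretches of some chromosomes hold no window of any library, which bears on these densities. On chromosome 4, 65 of 249 stretches of 1 Mb were empty, and its density was 0.508 per Mb, or 0.696 when stretches with 5 or more windows alone were counted. Chromosome 13 had 0.580 when counted in the same way, while chromosome 20 stayed lowest at 0.411 and chromosome 1 highest at 0.935. Across the 20 chromosomes, the number of strong BN windows followed chromosome span (Pearson 0.928, Spearman 0.932), and their density followed that of moderate BN windows (0.732 and 0.626) and, less, that of WKY allele windows (0.550 and 0.523). With the density of default windows it ran the other way (-0.488 and -0.489). These are descriptions over chromosomes that share the same 5 libraries.

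To separate strength from number, strong BN windows were also counted as a share of strong and moderate BN windows together. The share was 15.9% over all autosomes (15.3 to 16.6%). The highest of the 20 was chromosome 1, with 19.3% (17.3 to 21.5%), and the next was chromosome 16, with 18.8% (15.1 to 23.2%). Without the 1 Mb that holds most strong BN windows the chromosome 1 share was 18.6% (16.6 to 20.8%). The other 19 autosomes pooled had 15.5%. Chromosome 1 is named because it was the highest, and the intervals treat windows as independent although they lie in clusters, so this is a description. Chromosome 20 had the lowest share, 12.2%, with an interval of 8.25 to 17.6% that includes the value of all autosomes. Median BN strength of the windows differed little between chromosomes, from 271 on chromosome 1 to 347 on chromosome 13. Chromosome 1 therefore had many strong BN windows, with the lowest median among them.

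**Figure D2:**
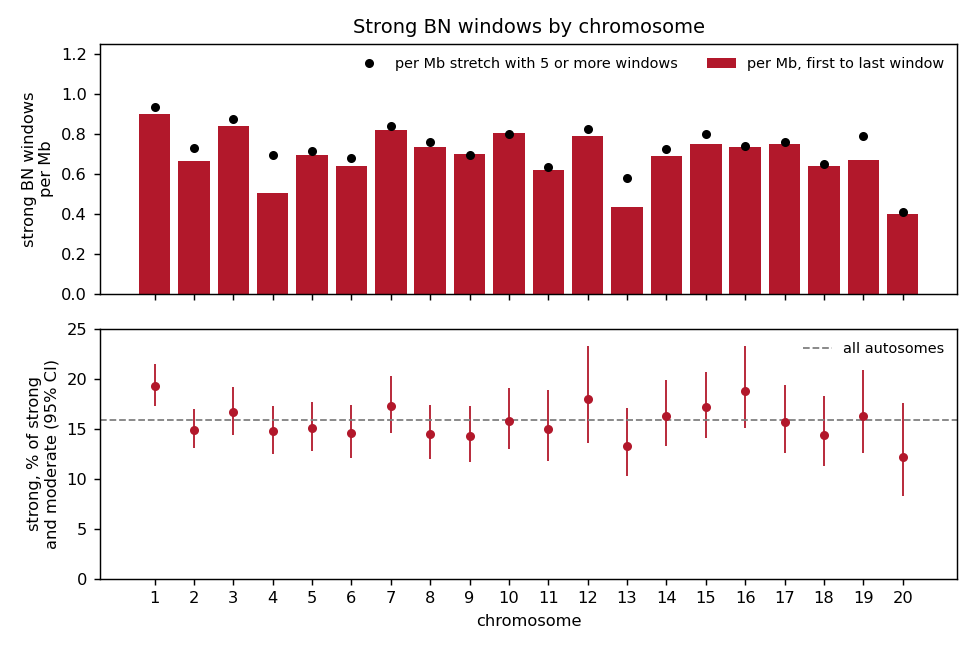
Strong BN windows by chromosome (x axis). Top, windows per Mb (bars) and per 1 Mb stretch with 5 or more windows of any library (points). Bottom, percent of strong and moderate BN windows that are strong, with Wilson 95% intervals and the value of all autosomes, 15.9%, as a dashed line. Chromosome 1 is highest in both panels and chromosome 20 lowest.

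Chromosome ends held strong BN windows about as often as moderate ones. Within 10 Mb of the first or last window of a chromosome lay 14.5% of them (13.0 to 16.2%), against 13.1% of moderate BN windows (12.5 to 13.8%), 14.2% of WKY allele windows (13.8 to 14.6%) and 15.8% of all autosomal windows. In the first 10 Mb alone the shares were 6.67% of strong (5.64 to 7.87%) and 5.33% of moderate BN windows (4.91 to 5.78%), and in the last 10 Mb 7.86% and 7.77%. When each chromosome was divided into 10 equal lengths, strong windows made up from 13.7% of strong and moderate BN windows in length 7 (11.9 to 15.7%) to 18.5% in length 1 (16.1 to 21.1%).

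The spacing of strong BN windows was uneven. From centre to centre, the nearest other strong BN window was a median of 299 kb away (280 to 310 kb), with quartiles of 104 and 698 kb and a longest distance of 13300 kb. Of the 1920, 24.4% had another within 100 kb and 84.1% within 1000 kb. Between consecutive windows the mean spacing was 1.36 Mb and the median 0.660 Mb, with 252 of 1900 spacings under 0.1 Mb and 98 over 5 Mb. In the 2541 stretches of 1 Mb with 5 or more windows, strong BN windows numbered 0.755 on average with a variance of 1.09. None was found in 1375 of these stretches, while 51 stretches with 4 or more held 237 of them. The distance to the nearest strong BN window can also be taken from other kinds of window. It was 408 kb from moderate BN windows (395 to 421 kb), 441 kb from WKY allele windows (430 to 450 kb) and 331 kb from default windows (314 to 345 kb), each longer than from the strong BN windows themselves.

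The closest pair of strong BN windows overlapped. On chromosome 7 they started at 37293031 and 37295410, with BN strengths of 344 and 387. Pairs without overlap came as close as 3.16 kb on chromosome 13, where windows starting at 49770376 and 49773531 had BN strengths of 228 and 655, and 3.31 kb on chromosome 8, where those starting at 103623895 and 103627201 had 361 and 243. At the other end, no strong BN window lay between 67272697 and 137538646 on chromosome 4, a gap of 70.3 Mb between centres. That gap held 121 windows of any library, among them 20 BN calls, 58 windows of WKY strength 120 or more and 34 KO/KO calls. A gap of 22.8 Mb on chromosome 2, from 18047433 to 40804822, held 91 windows, also few. The gap of 21.2 Mb on chromosome 5, from 82804394 to 104034549, differed from these. It held 351 windows, among them 97 BN calls of at most 173 in strength and 130 windows of WKY strength 120 or more.

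The densest 1 Mb lay on chromosome 1 from 152320304 to 153315450 and held 12 strong BN windows, with BN strengths from 261 to 3008 and a median of 634.5. These 12 carried 1.59% of the summed strength of all 1920. The strongest of them was the strongest strong BN window of all. Hotspots of the other libraries were also strong here, in other windows. The median strength of the 30 WKY calls was 527.5, against 210 for autosomal WKY calls in general. In wild-type SHR the 21 calls had a median of 295, against 72, and in KO/wt the 22 calls had 208.5, against 70. In KO/KO the 24 calls had a median of 205, against 64. The same window, starting at 153211965, was the strongest call in WKY, wild-type SHR and KO/wt, and lay 79.3 kb from the strongest strong BN window. It reached 13250 in WKY, with 7282, 9559 and 46 in SHR wild-type, KO/wt and KO/KO and -4 in BN. It was not called in KO/KO, where the strongest call was 499. In each of the 4 libraries other than BN the median call here was thus stronger than the median call of the autosomes. The stretch was chosen for its strong BN windows, which fixed the BN level. The nearest KO/KO call lay 3.38 kb from the strongest strong BN window and the nearest WKY window, given above, 2.51 kb. A further 4 windows of BN strength 200 or more were left out by the limits on the other libraries. The calls ended abruptly, and no window of any library was centred between 196.5 and 471.8 kb on the side of higher coordinates. Between 200 and 1000 kb on that side there were 0 calls in BN and in each SHR library, and 22 calls in WKY with strengths of at most 371. A window there was called in WKY at a strength of 6, and a BN strength of 100 was not called. Whether coverage or calling differs in this stretch was not tested.

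**Figure D3:**
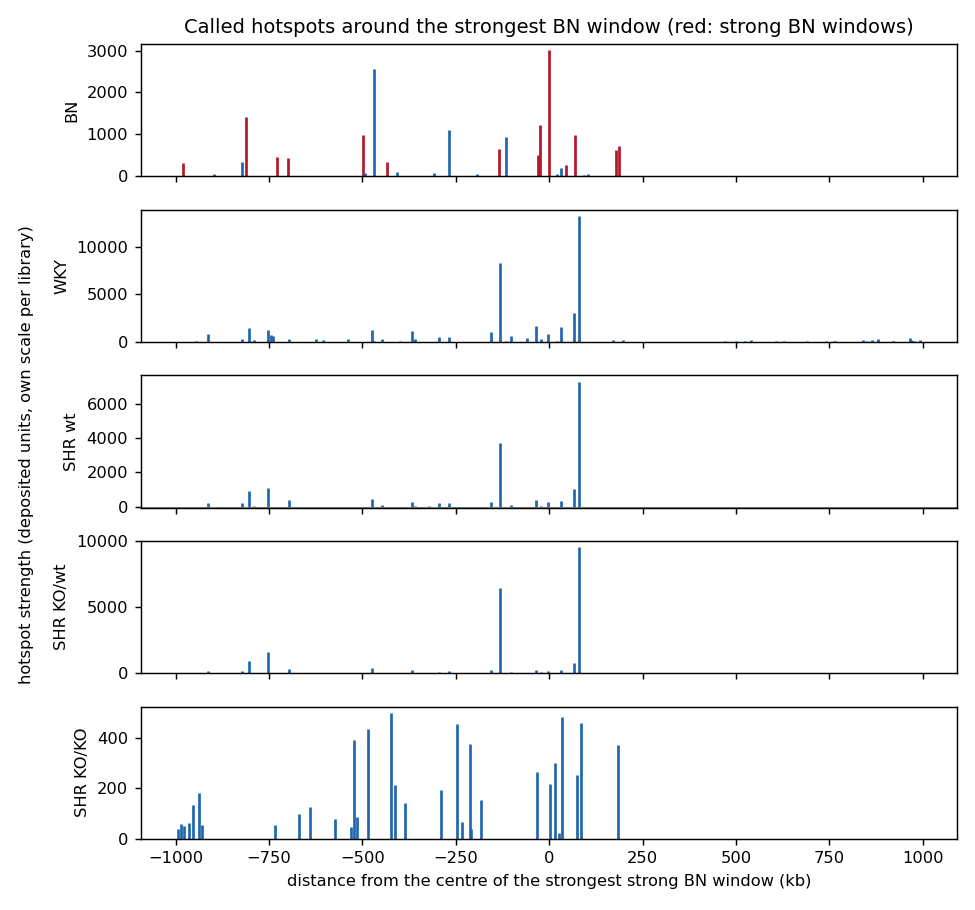
Strength of called hotspots (y axis, deposited units, own scale per library) against distance from the centre of the strongest strong BN window (x axis, kb). Each line is a called hotspot, and strong BN windows are red in the BN panel. Other BN calls, including those the limits left out, are blue. From -1000 to 200 kb all 5 libraries have many calls, and from 200 to 1000 kb only WKY does, with 22.

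Strong BN windows were also summed over fixed stretches of 1 Mb. Of the 6 stretches with the highest summed BN strength of strong BN windows, 2 are on chromosome 1 from 152 to 154 Mb and hold the cluster just described. The other 4 were ranked among 2757 stretches by the summed strength of all calls in each library, where the BN rank follows largely from the choice. Chromosome 3 from 52 to 53 Mb, with 6 strong BN windows, was number 3 in BN and 1 in WKY, and number 2, 2 and 1 in SHR wild-type, KO/wt and KO/KO. Chromosome 4 from 7 to 8 Mb, with 8, was number 12 in BN and 43 in WKY, and number 250, 324 and 71 in the same SHR libraries. On chromosome 16 from 69 to 70 Mb, with 6, the ranks were 4 in BN and 8 in WKY, and 94, 392 and 1182 in SHR. Chromosome 1 from 70 to 71 Mb, with 3 strong BN windows that sum to 4044, was number 11 in BN and 89 in WKY, and it had 0 calls in each of the SHR libraries. Over the 2541 stretches, summed strength of strong BN windows had Spearman correlations of 0.416 with summed WKY strength, 0.387 with KO/KO and 0.274 with wild-type SHR. Stretches share the overall density of windows, so these correlations are descriptions. The median number of windows of WKY strength 120 or more was 9 in the 1375 stretches without a strong BN window, 13 in those with 1 and 16 in those with 4 or more. KO/KO calls numbered 9, 15 and 18 in the same stretches, and windows of all kinds 28, 42 and 51.

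The nearest window of WKY strength 120 or more was a median of 23.9 kb from strong BN windows (22.43 to 25.04 kb), with quartiles of 10.7 and 46.6 kb. For all 52854 autosomal windows of WKY strength 60 or less the median was 28.1 kb (27.8 to 28.5 kb). It was within 5 kb for 11.9% of the strong BN windows (background 9.5% of autosomal windows of WKY strength 60 or less), within 10 kb for 23.0% (21.19 to 24.96%, background 20.6%) and within 50 kb for 77.9% (76.0 to 79.7%, background 71.1%). Moderate BN windows, under the same limits, were 27.4 kb away at the median (26.7 to 28.2 kb), with 21.1% within 10 kb (20.3 to 21.9%). Default windows were 26.3 kb away (24.9 to 27.2 kb), with 20.9% within 10 kb (19.6 to 22.2%). The medians of strong and moderate BN windows thus had intervals that do not overlap, while their shares within 10 kb had intervals that do. Both kinds of interval treat windows as independent although they lie in clusters, so this comparison is not a test. In windows that overlap no other, the medians were 25.5 kb (24.1 to 27.4 kb) for strong, 29.2 kb (28.43 to 30.02 kb) for moderate and 27.4 kb (26.4 to 28.5 kb) for default windows.

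**Figure D4:**
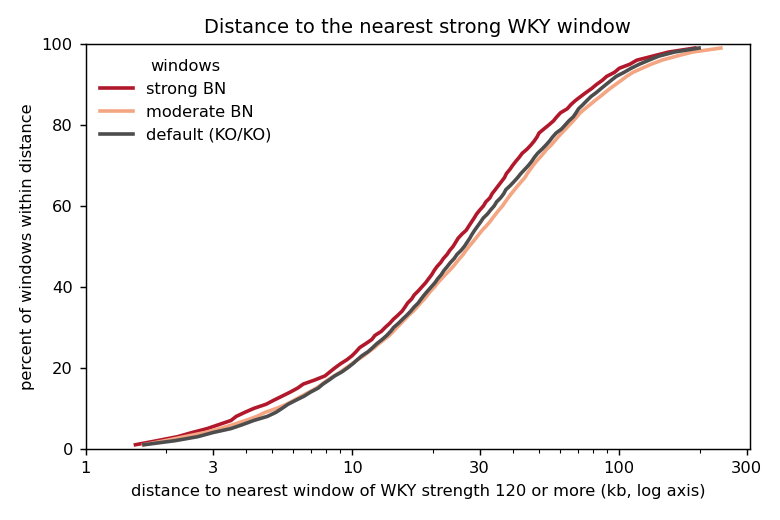
Percent of windows (y axis) within a given distance (x axis, kb, logarithmic) of the nearest window of WKY strength 120 or more, for strong BN, moderate BN and default windows. The strong BN curve lies to the left over most of its length, with a median of 23.9 kb against 27.4 kb for moderate BN windows.

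The median distance was shorter in stronger BN windows. Among windows called in BN and under the same limits, the median distance to a window of WKY strength 120 or more was 29.1 kb at BN strengths of 20 to under 50 (28.0 to 30.2 kb), 28.0 kb at 50 to under 100 and 26.4 kb at 100 to under 200. It was 24.3 kb at 200 to under 300 (22.5 to 27.0 kb), 24.1 kb at 300 to under 500 (21.6 to 26.6 kb) and 21.8 kb at 500 or more (17.6 to 24.4 kb). The intervals of the groups at 200 or more overlapped. The share within 10 kb did not rise in order, with 20.5, 20.3, 22.6, 22.8, 21.3 and 28.0% from the weakest to the strongest group. Among the strong BN windows alone the Spearman correlation of strength with the distance was -0.055, so the trend was weak within them. Other neighbours were closer too. Another BN call was 33.8 kb from strong BN windows (31.9 to 35.9 kb) and 40.2 kb from moderate ones (39.0 to 41.3 kb), and a KO/KO call was 22.5 kb (20.9 to 24.2 kb) and 25.5 kb away (24.6 to 26.3 kb). Within 500 kb, strong BN windows had a median of 10 other BN calls, 14 windows of WKY strength 120 or more and 18 KO/KO calls, against 9, 13 and 16 for moderate BN windows. The shorter distance was therefore seen for neighbours of every kind measured.

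**Figure D5:**
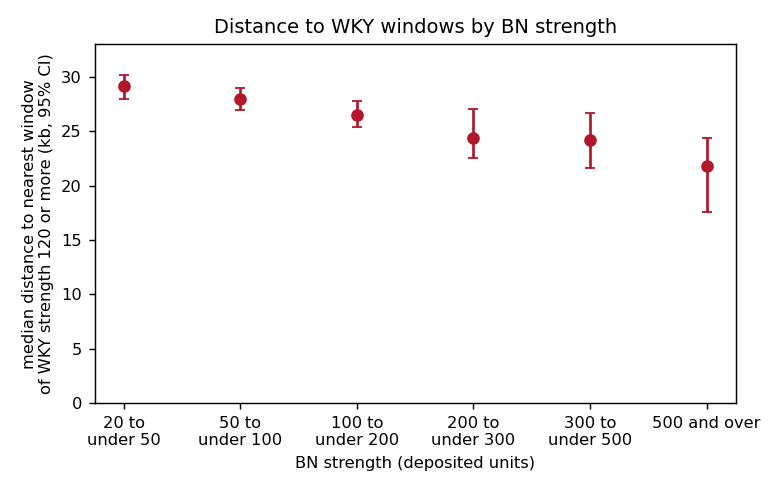
Median distance (y axis, kb) to the nearest window of WKY strength 120 or more, by BN strength (x axis), for windows called in BN under the limits on the other libraries. Bars are 95% intervals from order statistics. The median falls from 29.1 kb in the weakest group to 21.8 kb in the strongest.

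The WKY neighbours were close in strength to WKY windows in general. The nearest such windows of the 1920 strong BN windows were 1803 distinct windows, and counted once per strong BN window their median strengths were 281 in WKY and 8 in BN, and 49, 41 and 3 in SHR wild-type, KO/wt and KO/KO. All 29483 autosomal windows of WKY strength 120 or more had a median WKY strength of 260. Of the neighbours 64.1% were called in wild-type SHR, against 59.7% of all such windows, and 2.66% were called in BN, against 3.35%. They lay at the higher coordinate for 985 strong BN windows, or 51.3%. Their strength did not change in order with distance, with median WKY strengths of 288.5 under 3 kb, 265.5 from 3 to under 10 kb, 285 from 10 to under 50 kb and 261 at 100 kb or more. BN strength of the strong BN windows over the same distances was 284, 292.5, 294.5 and 266.5. In the 104 windows whose WKY neighbour overlapped them, the WKY strength had a median of -14.5 and was below 0 in 63. From 3 to under 10 kb the median WKY strength was back at 20, as at greater distances.

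Closest to a WKY window was a strong BN window on chromosome 16 from 70421682 to 70424682, with 227 in BN and 31 in WKY. The centre of its neighbour was 1.03 kb away, and that window had strengths of 140 in BN and 127 in WKY and was called in WKY and not in BN. Windows this close share most of their sequence, so their values are not separate measurements. On chromosome 17 from 25969683 to 25972683, without overlap, the strongest strong BN window of that chromosome had a BN strength of 981 and a WKY strength of 49, with a WKY window 3.05 kb away. The most distant lay on chromosome 2 from 128272115 to 128275115, with a BN strength of 231, and was 416 kb from the nearest WKY window and 1828 kb from the nearest KO/KO call. Next in distance were chromosome 2 from 227951589 to 227954589, at 372 kb, and chromosome 15 from 35521902 to 35524902, at 371 kb, with BN strengths of 281 and 302. The KO/wt strengths of these 3 windows were 10, 2 and 8. The first was also 4165 kb from another strong BN window. The third was 740 kb from one and 706 kb from a KO/KO call. Nearer to both was the second, with another strong BN window 159 kb away and a KO/KO call 91.7 kb away. Over all strong BN windows these distances had medians of 299 and 22.5 kb.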

How the data were processed

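DMC1 SSDS libraries of 5 conditions were read from the deposited table, and each column was assigned to the library whose label gives its strain and genotype. The other 8 of the 13 samples, H3K4me3 and input libraries, were not analysed here. The authors aligned reads to rn5 with a modified bwa (BWA 0.7.12 in the submitters' processing notes), called hotspots from uniquely mapping single-stranded fragments and merged the calls in a way not given in the sources used here. In the deposited table the strength is a score of unknown scaling, and the call marks are 1 or 0. Windows are 3000 bp long, with coordinates as deposited. Autosomal strengths summed to values between 2691262 (wild-type SHR) and 12607770 (WKY), and depth in reads is unknown. Distances are between window centres. Ends were taken from the first and last window of a chromosome.

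The windows and the sets compared with them were chosen with earlier results of these data known. Named windows follow fixed ranks (the 10 strongest, the strongest of each chromosome, the highest KO/wt values, the nearest and farthest from WKY windows, the closest pairs, the widest gaps, the densest 1 Mb). The 1 Mb stretches named by rank, the windows of lowest strength and the 200 kb limit beside the strongest window were chosen after their values were seen. Calculations used Python 3.11.15 with scipy 1.17.1, pandas 2.3.3 and numpy 2.4.6, and plots matplotlib 3.10.9. The functions recovered 5 of 5 known answers on 4000 simulated windows.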

Additional observations from a re-analysis of the deposited data

How the results depend on the processing

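No paired analysis was possible because every condition had a single library and the results are values without tests, and for the same reason no replicate could be left out. For 22 of 42 alternatives the result lay inside the 95% interval reported, or within 1.5 times for counts, the share of strength and the range of density. The KO/wt median of 3 and the 0 calls in KO/wt were the same under the 3 choices of members tried. With a BN floor of 300 there were 877 windows, 4.62% of BN calls and 20.6% of their strength, a median of 700.1 kb apart. With limits of 10 in wild-type SHR and KO/KO and 30 in WKY there were 1248, or 6.57% and 21.4%, and 448 kb apart. Without overlapping windows the share of BN calls was 8.64%, the spacing 343 kb, the distance to WKY windows 25.5 kb with 19.1% within 10 kb, and the distance to KO/KO calls 24.6 kb. Each of these choices keeps a part of the windows, so the shares must fall and no kept window can gain a nearer neighbour of the set. Whether the spacings grew by more than the smaller number brings was not tested. Leaving out overlapping windows also removes, by definition, the 104 windows with a WKY neighbour under 3 kb and those that overlap a KO/KO call. The distances to WKY and KO/KO are therefore longer in part by construction, and no other cause was tested. Counting any WKY call gave 20.0 kb and 27.4% within 10 kb, a WKY strength of 600 or more gave 143 kb and 5.31%, and a limit of 50 kb gave 77.9%. KO/KO windows of 200 or more were 163 kb away. The last 10 Mb alone held 7.86%. The density per occupied stretch, the comparison sets without overlapping windows and chromosome 1 without its densest 1 Mb were chosen after the data were seen.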

Other observations

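Beside the strong BN windows stood 360 autosomal windows of BN strength 200 or more that the limits left out. Of these, 284 exceeded the WKY limit, 192 the wild-type SHR limit and 124 the KO/KO limit, and some exceeded more than 1. A BN hotspot was called in 280 of the 360. Those 280 had median strengths of 270.5 in BN, 113 in WKY, with 18, 17.5 and 6 in SHR wild-type, KO/wt and KO/KO. Of them 52 were also called in WKY, 36 in wild-type SHR, 33 in KO/wt and 11 in KO/KO. The other 80 were not called in BN, and 59 of them overlap another window.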
